A study of Mus musculus with 2 samples.

Results

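Rab GTPases are small proteins that switch between a GDP-bound and a GTP-bound state and, when GTP-bound, recruit effectors that move, tether and fuse membrane vesicles. Exchange factors turn them on, GTPase-activating proteins turn them off, and lipid (prenyl) tails at the C-terminus hold them on their organelle. Megakaryocytes, the blood cells that release platelets, rely on such traffic to build alpha granules, dense granules and the internal membranes from which platelets form. Open chromatin at the Rab genes was examined here in megakaryocyte progenitors. The genes were the 57 protein-coding genes of GENCODE M21 whose symbol is Rab followed by a number, with an optional letter and digit, of 21938 protein-coding genes in all. Rab27a and Rab27b were left out by the rule, and no measured value was used to choose the others.

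The data were ATAC-seq, an assay that reads accessible DNA by the cuts of a transposase, from primary megakaryocyte progenitors of adult male C57BL/6J mice aged 5 to 6 weeks. The labels also call the cells CFU-M. There was 1 group, with no treatment or genetic change named in the labels, and 2 libraries of 50000 cells numbered as biological replicates. The labels give both libraries the same donor code and do not say how many mice were pooled, so the spread between them may be partly technical. The replicates' own peak lists held 61735 and 60098 regions, and the conservative list, made by the authors from both libraries and thresholded on the irreproducible discovery rate (IDR, a measure of how consistently peaks rank between replicates), held 80938. Signal is the authors' peak caller's value for a region's strongest summit. It has no stated scaling between libraries, and read depth is unknown. By the same promoter rule as for the Rab genes, peaks were listed at 9 of 16 megakaryocyte marker genes, 6 of 8 erythroid, 5 of 8 granulocyte and monocyte and 1 of 8 lymphoid ones, with signals of 4.58 to 13.9, 3.96 to 13.3, 5.22 to 15.0 and 5.94, against 60.1% of all protein-coding genes. Megakaryocyte markers without one included Gp1bb, Gp6, Ppbp, Vwf, Selp and Fli1. Erythroid and granulocyte promoters were therefore open in the same sample, and the part of such cells in the values below was not tested.

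Promoters that carry the main results are printed first, from RefSeq's copy of mm10, in lower case with matches to the motifs searched in capitals. Each is the stretch within 150 bases of the summit that overlaps no annotated exon, on the gene's own strand. Rab12 had the highest promoter signal of the family (chr17:66519730-66519910, minus strand). Rab7 was the only member with a GATA match near its promoter summit (chr6:88045271-88045449, minus strand). Rab5a (chr17:53479138-53479233, plus strand) and Rab21 (chr10:115315595-115315645, minus strand) carry TCACGTGA, the E-box known from lysosomal gene promoters. Rab44 (chr17:29113988-29114144, plus strand) has one of the open promoters with fewest CpG dinucleotides relative to base content.
Rab12: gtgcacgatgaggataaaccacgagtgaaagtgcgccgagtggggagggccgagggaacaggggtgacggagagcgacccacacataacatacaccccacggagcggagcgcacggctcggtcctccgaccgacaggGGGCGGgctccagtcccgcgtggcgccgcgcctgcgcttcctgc
Rab7: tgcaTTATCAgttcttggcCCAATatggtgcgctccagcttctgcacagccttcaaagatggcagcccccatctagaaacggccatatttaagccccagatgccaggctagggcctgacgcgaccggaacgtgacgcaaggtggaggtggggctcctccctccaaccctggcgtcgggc
Rab5a: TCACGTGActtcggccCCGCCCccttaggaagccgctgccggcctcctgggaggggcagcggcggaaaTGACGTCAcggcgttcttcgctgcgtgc
Rab21: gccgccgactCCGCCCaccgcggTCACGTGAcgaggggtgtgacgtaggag
Rab44: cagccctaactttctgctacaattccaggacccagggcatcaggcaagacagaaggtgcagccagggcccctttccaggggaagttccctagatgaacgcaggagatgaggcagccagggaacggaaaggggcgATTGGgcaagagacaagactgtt
The capitals are GGGCGG (the SP and KLF box) in Rab12, Rab5a and Rab21, TGATAA and ATTGG (NFY) in Rab7, TCACGTGA in Rab5a and Rab21, TGACGTCA (CRE) in Rab5a and ATTGG in Rab44, each on either strand. The summit of Rab5a lies in its first exon, so the printed stretch is the upstream part of that peak.

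Strong open regions more than 1 kb from every protein-coding start site, called distal, are printed in the same way, 75 bases each side of the summit. The Rab3d region is the strongest distal region of the family (chr9:21901571-21901721, minus strand), followed by a region in an intron of Rab39 (chr9:53693841-53693991, minus strand) and one in an intron of Rab6a (chr7:100616245-100616395, plus strand). The Rab4a region is the strongest at the member with most distal regions (chr8:123797991-123798141, plus strand).
Rab3d: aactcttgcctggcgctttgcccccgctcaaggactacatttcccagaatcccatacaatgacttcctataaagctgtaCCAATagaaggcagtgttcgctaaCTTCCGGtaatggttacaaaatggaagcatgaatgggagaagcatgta
Rab39: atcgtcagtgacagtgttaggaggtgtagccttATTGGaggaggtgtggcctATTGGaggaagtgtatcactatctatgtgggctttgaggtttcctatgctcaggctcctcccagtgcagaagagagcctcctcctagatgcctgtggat
Rab6a: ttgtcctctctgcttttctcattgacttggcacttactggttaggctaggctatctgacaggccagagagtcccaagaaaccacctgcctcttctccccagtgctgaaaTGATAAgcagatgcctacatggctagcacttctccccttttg
Rab4a: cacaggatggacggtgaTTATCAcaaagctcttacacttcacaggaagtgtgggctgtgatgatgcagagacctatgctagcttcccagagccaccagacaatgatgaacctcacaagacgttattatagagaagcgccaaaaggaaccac
Capitals mark ATTGG on either strand and CCGGAAG (ETS) in Rab3d, ATTGG in Rab39, and TGATAA in Rab6a and Rab4a.

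Most Rab promoters were open. A promoter peak, a region whose strongest summit lies within 1 kb of a start site of a protein-coding transcript, was listed at 48 of the 57 genes, 84.2%, against 60.1% of all protein-coding genes. Each replicate's own list held 47 of them (82.5%, against 57.1% and 56.4% of all genes), and they were the same 47 genes, while 55.1% of all genes had a peak in both lists. The other open promoter, that of Rab9b, was in the conservative list (signal 7.09) but in neither replicate's own. Median promoter signal was 12.1 over the 48 genes, with values from 6.75 to 17.8, and 11.3 over the 13194 protein-coding genes that had one. Against the quartiles of those, 6 Rab genes lay below 8.62, 13 from there to 11.3, 18 up to 14.05 and 11 above it. A promoter with a peak is called open below, and a gene without one may still hold open chromatin under the list's threshold. In bulk material fewer cells with an open site and less opening per cell cannot be told apart. At CpG-rich genes, defined below, the open shares were 87.2% of Rab genes against 88.5% of all, and at CpG-poor ones 77.8% against 35.4%. Genes are not replicates and the members were chosen with earlier results known, so no test was made of these shares.

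**Figure D1:**
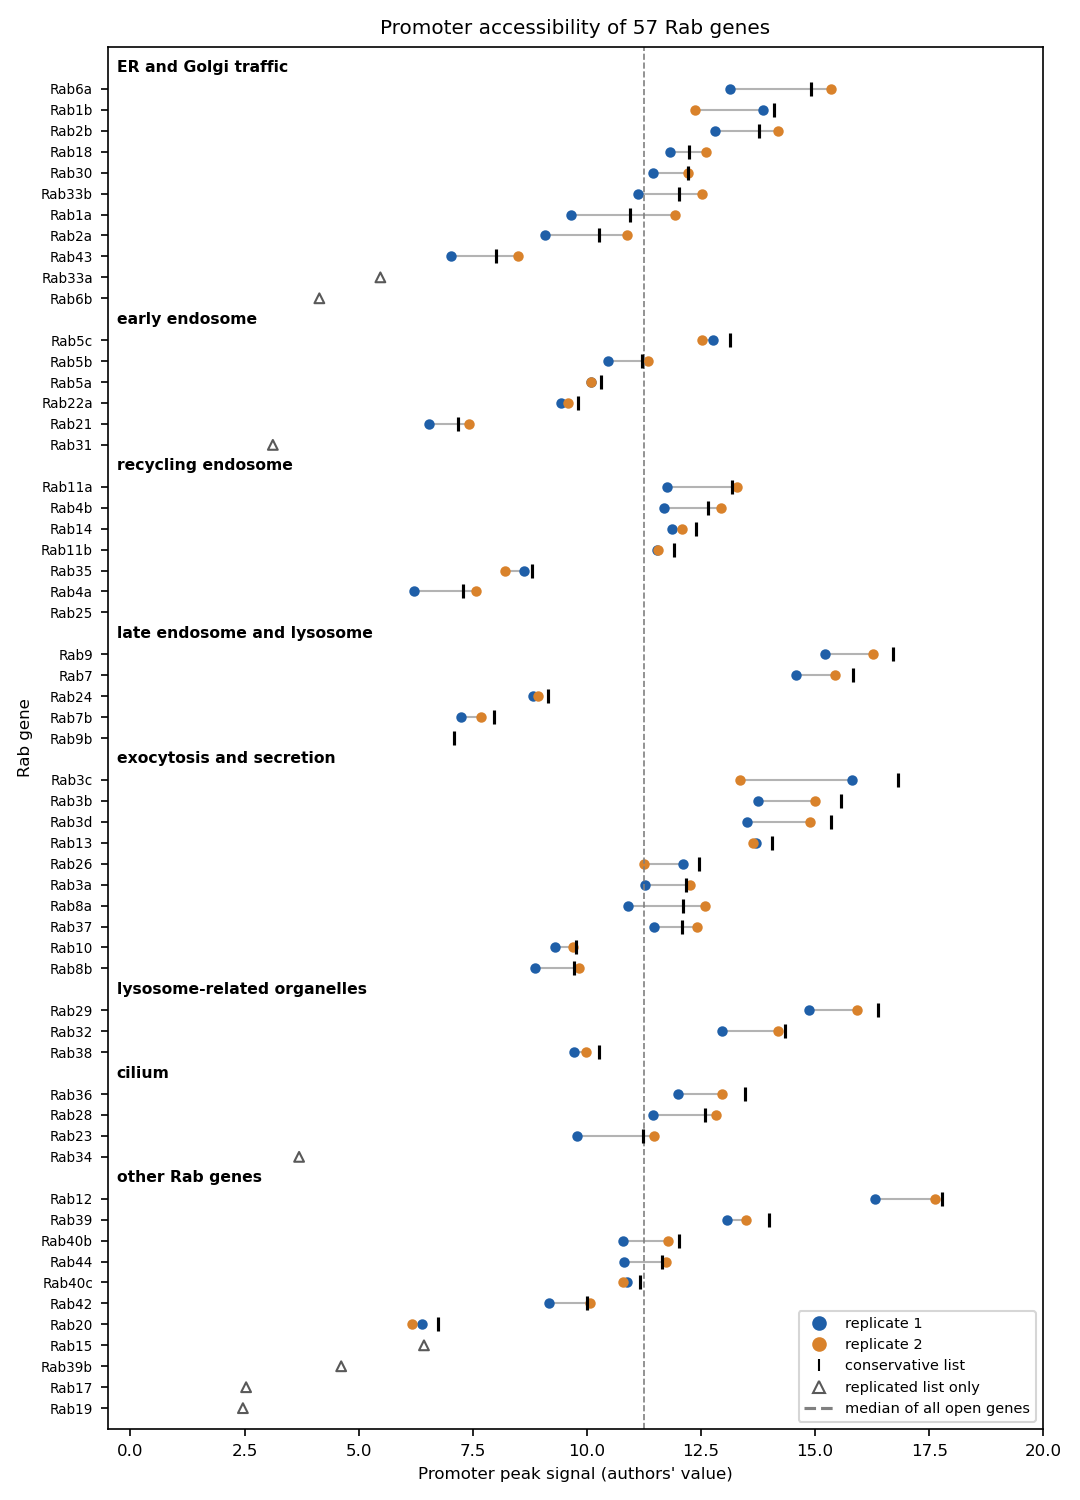
Promoter signal (authors' value, x axis) of the 57 Rab genes, ordered by role (y axis). Circles are each replicate's own list, ticks the conservative list, triangles genes listed at a promoter only in the replicated list (a longer list from the same libraries, with no IDR threshold in its name), and the dashed line the median of all genes with a promoter peak, 11.3. The 9 genes without a tick have no promoter peak in the conservative list, and Rab25 has none in any list drawn.

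**Figure D2:**
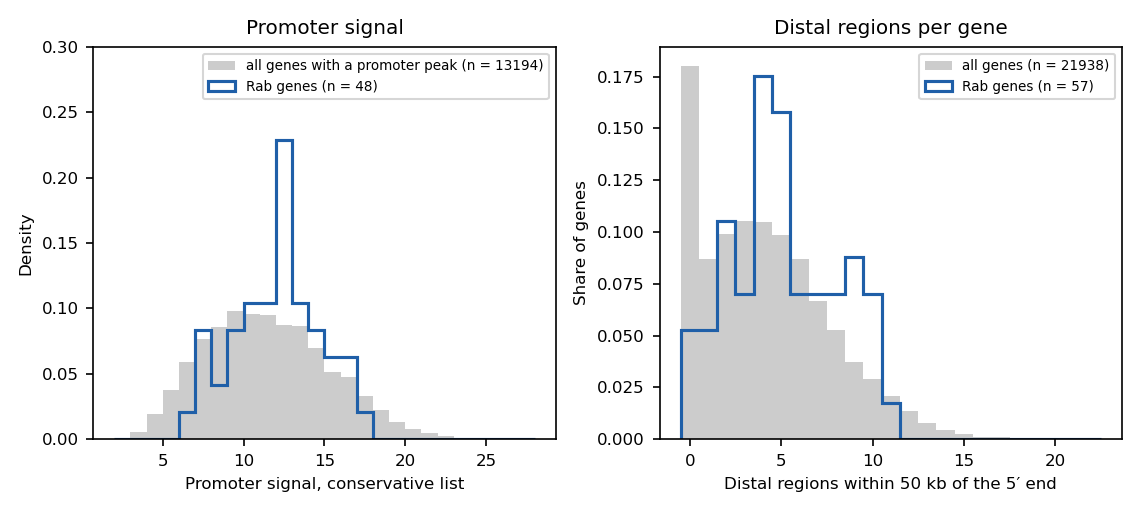
Left, distribution (density) of promoter signal in the conservative list for 48 Rab genes (line) and 13194 genes (grey). Right, share of genes by number of distal regions for 57 Rab genes and 21938 genes. The Rab genes lie within the range of all genes in both, and 3 of them have no distal region.

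The role groups that follow stand beside shares of 84.2% of all Rab genes and 60.1% of all genes with a promoter peak. These groups are small, and none was tested against those shares. Of the 11 genes of traffic between endoplasmic reticulum (ER) and Golgi, 9 had a promoter peak, with a median signal of 12.2. Rab6a, a Golgi regulator of retrograde transport, was highest in the conservative list (14.9), with 13.1 in replicate 1 and 15.4 in replicate 2 (14.2 ± 1.57, SD, n = 2; gene at chr7:100607410-100641268), though Rab1b was higher in replicate 1. Its promoter region also lies within 1 kb of a start of Mrpl48. Rab43 was the lowest open member of the group at 7.03 and 8.48 (7.76 ± 1.03). Rab1a, which drives ER-to-Golgi transport, had 9.65 and 11.9 (10.8 ± 1.62), a log2 ratio of replicate 2 to replicate 1 of 0.31 that was the widest in the family. Its paralogue Rab1b went the other way, with 13.9 and 12.4. Their ranges did not overlap, so Rab1b was the higher of both in each replicate. Rab2a had 9.07 and 10.9, and Rab2b, whose promoter region also lies within 1 kb of a start of Tox4, 12.8 and 14.2. Rab18, known for its place on lipid droplets and the ER, had a signal of 12.2 at a start 31.2 kb inside its annotated 5′ end.

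Early endosome genes were open at 5 of 6. Rab5c led them with 12.8 and 12.5 in the replicates (12.6 ± 0.183, SD, n = 2), above Rab5b with 10.5 and 11.3 and Rab5a with 10.08 and 10.09. All 3 Rab5 proteins drive fusion of early endosomes, and the order Rab5c, Rab5b, Rab5a was the same in both libraries. Rab21, which acts in integrin traffic, was lowest at 6.55 and 7.41 (6.98 ± 0.611). Rab31 had no promoter peak, while Rab22a, its closest paralogue, had 9.44 and 9.59.

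The recycling group was open at 6 of 7. Rab11a and Rab11b, of the recycling endosome, had 12.5 ± 1.08 and 11.5 ± 0.0108 (SD, n = 2). Rab11a was at 11.8 and 13.3 and Rab11b at 11.54 and 11.55, so Rab11a was the higher of both in each replicate. Rab4a, which acts in rapid return of receptors to the surface, was the lowest at 6.21 and 7.56 (6.88 ± 0.958), below Rab4b at 11.7 and 12.9. This depends on the 1 kb rule. With a 2 kb window, or any overlap of a region, its conservative-list signal was 9.30, above the 8.79 of Rab35. That value is of a region 1.19 kb from the start of Rab4a, counted as distal here. Rab25, an epithelial relative of Rab11, was the only gene of the 57 with no promoter peak even in the longer replicated list, in which 68.1% of all genes had one. Its nearest open region in the conservative list lay 3.53 kb from a start site.

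All 5 late endosome and lysosome genes were open, over a wide range. Rab9, which returns receptors from late endosomes to the Golgi, had 15.2 and 16.3 (15.7 ± 0.747, SD, n = 2; chrX:166457253-166479867) and Rab7, the regulator of fusion with lysosomes, 14.6 and 15.4 (15.01 ± 0.601; chr6:87999106-88045270). Of genes with a promoter peak, 90.1% and 86.0% had a lower signal than these in the conservative list. Their paralogues stood at the other end. Rab7b had 7.25 and 7.67, and Rab9b, with 7.09 in the conservative list, was the lowest of the group.

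The exocytosis and secretion genes were open at 10 of 10, against 84.2% of all Rab genes and 60.1% of all genes. Some of the 10 are known mainly from nerve terminals. Rab3c was highest in the conservative list at 16.8, with 15.8 and 13.4 in the replicates (14.6 ± 1.74, SD, n = 2), the largest SD of promoter signal in the family. Rab3b (14.4 ± 0.872) and Rab3d (14.2 ± 0.965) followed, with replicate ranges that overlapped each other and that of Rab3c. Rab3a, the main synaptic vesicle Rab, had 11.3 and 12.2, below the other 3 in each replicate. Rab8b, which acts in transport to the plasma membrane, was lowest in the conservative list (9.71), at 8.86 and 9.83 in the replicates (9.35 ± 0.681), though Rab10 was lower in replicate 2 (9.71). Both values of Rab8a, 10.9 and 12.6, were above those of Rab8b. Rab37, a secretory granule Rab, was open at both of its start sites, which lie 62.7 kb apart. Its downstream start had the stronger signal (12.1, against 7.58 at the upstream one).

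Genes of lysosome-related organelles, the class to which platelet dense granules belong, were open at 3 of 3. Rab32 had 13.0 and 14.2 (13.6 ± 0.861, SD, n = 2; chr10:10545002-10558265) and Rab38 9.72 and 9.97 (9.84 ± 0.182). These act together in delivering cargo to melanosomes and dense granules, and Rab32 was the higher of both in each library. Rab29 was highest at 14.9 and 15.9 (15.4 ± 0.741). The group had few distal regions: none at Rab32, 1 at Rab29 and 3 at Rab38, a mean of 1.33 against 5.12 over all Rab genes.

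Of 4 genes known from cilia, Rab36 (12.5 ± 0.687, SD, n = 2), Rab28 (12.1 ± 0.969) and Rab23 (10.6 ± 1.19) had a promoter peak and Rab34 had none. Of the remaining 11 genes 7 did. Rab12, which acts on the way from recycling endosomes to lysosomes, was the strongest promoter of all 57 at 16.3 and 17.6 (17.0 ± 0.916; chr17:66494512-66519729). Its signal of 17.8 in the conservative list was above that of 94.1% of genes with a promoter peak. Rab20 was the weakest open promoter of the 57 in the conservative list (6.75), at 6.39 and 6.18 in the replicates (6.28 ± 0.148), though Rab4a was lower in replicate 1. Rab44, an unusually long Rab with EF-hands, had 10.8 and 11.7.

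The 9 genes without a promoter peak in the conservative list were Rab6b, Rab15, Rab17, Rab19, Rab25, Rab31, Rab33a, Rab34 and Rab39b. Several are known mainly from other tissues: Rab6b, Rab15 and Rab39b from brain, and Rab17 and Rab25 from epithelia. Rab3a, the main synaptic vesicle Rab, was open all the same (12.2), and a link to tissue was not tested. In the longer replicated list 8 of the 9 had a weak promoter peak, so the family was open at 56 of 57 there (98.2%, against 68.1% of all genes). Those signals were 6.43 at Rab15, 5.47 at Rab33a, 4.62 at Rab39b, 4.14 at Rab6b, 3.69 at Rab34, 3.12 at Rab31, 2.53 at Rab17 and 2.46 at Rab19. All 8 lay below the weakest open Rab promoter of the conservative list, Rab20 with 6.75. Over all genes, promoter signals in that list went down to 2.64. In the libraries' own pseudoreplicated lists Rab15, Rab33a, Rab39b and Rab6b were listed in both replicates, Rab31 in replicate 2 only (3.97), and Rab17, Rab19 and Rab34 in neither. With a window of 2 kb Rab15, Rab19 and Rab31 also counted as open, since regions lay 1.40, 1.25 and 1.59 kb from their start sites.

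Paralogues with a common number differed in promoter signal and, in the conservative list, in whether a promoter peak was listed. Of 13 such sets with 29 genes, 10 were open at every gene and 3 were mixed. The mixed sets were Rab6 (Rab6a open, Rab6b not), Rab33 (Rab33b with 11.1 and 12.5, Rab33a none) and Rab39 (Rab39 with 13.1 and 13.5, Rab39b none). In the longer replicated list Rab6b, Rab33a and Rab39b had the weak promoter peaks given above, so no set was mixed there. The 10 sets open throughout in the conservative list still held wide gaps, as between Rab9 and Rab9b or Rab4b and Rab4a. The signals of the replicates ranked the 47 genes alike (Spearman 0.922 across genes, against 0.956 over 12080 genes), and log2 ratios of the second to the first library had a median of 0.11 at Rab promoters and 0.09 at all. After Rab1a the widest ratios were at Rab4a (0.28), Rab43 (0.27) and Rab2a (0.26), each higher in replicate 2. No Rab promoter was listed in the own list of only 1 replicate.

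Summits of Rab promoters lay a median of 54 bases from the nearest start site, and 43 of 48 within 200 bases. Of the 48 summits 32 lay upstream of it, 15 downstream and 1 on it. The median region was 942.5 bases wide, and Rab7b had the narrowest at 314. Where a gene has start sites over 1 kb apart, the outermost group of protein-coding starts was mostly the open one. Of 16 such genes 2 (Rab13 and Rab37) had a peak at each group, 11 at the outermost only, and 3 (Rab15, Rab17 and Rab34) at none. Inner starts without a peak included those of Rab7 (25.5 kb inside the gene), Rab30 (36.0 and 78.3 kb) and Rab44 (20.9 and 22.2 kb). Only 3 of the 48 open promoters, 6.25%, were shared with another protein-coding gene within 1 kb of the summit (Tox4, Mrpl48 and Rps27, beside Rab2b, Rab6a and Rab13), against 18.7% of all open genes.

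CpG-rich genes made up 39 of the 57 Rab genes, against 10227 of all 21938 protein-coding genes. With CpG richness taken as an observed-to-expected ratio of at least 0.6 within 500 bases of the outermost start, 34 of 39 CpG-rich Rab genes were open (87.2%, against 88.5% of CpG-rich genes). Of the CpG-poor ones 14 of 18 were (77.8%, against 35.4%). At ratios of 0.4 to 0.6 it was 11 of 12 (91.7%, against 67.4%) and under 0.4 it was 3 of 6 (50%, against 24.1%). The 3 were Rab7b (ratio 0.23), Rab44 (0.24) and Rab26 (0.30), and those without a peak Rab17 (0.24), Rab25 (0.29) and Rab19 (0.33). Of the 9 genes without a peak 5 were CpG-rich, with ratios of 0.69 (Rab34) to 0.76 (Rab6b). The median ratio of the 9 was 0.69 against 0.21 over all genes without a promoter peak. Over all 57 Rab genes, open or not, the median was also 0.69, against 0.56 over all genes. Rab9, Rab30 and Rab3c lay just under the limit of 0.6 (0.593, 0.595 and 0.587), and Rab3d just above it (0.605). Counts of this size are small, and no test was made.

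**Figure D3:**
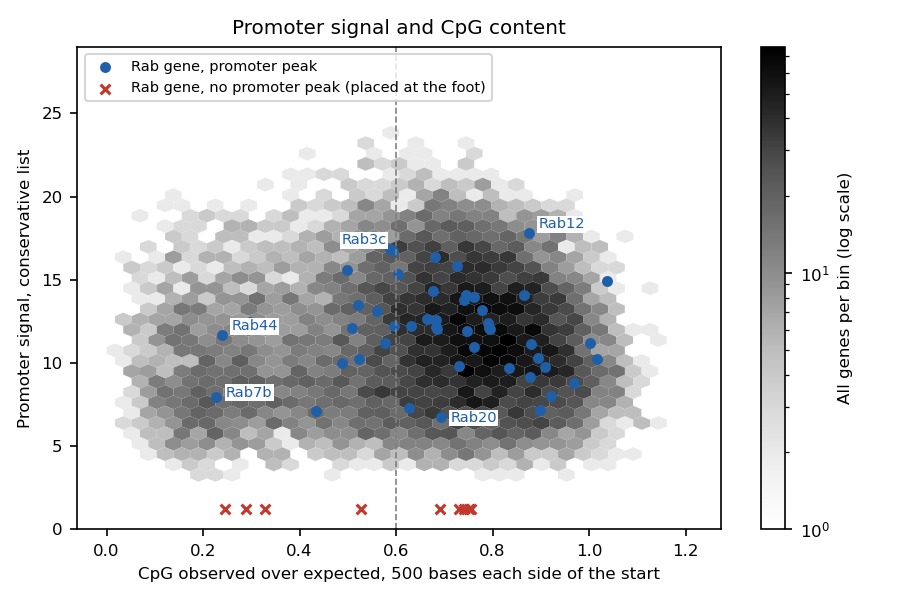
Promoter signal in the conservative list (y axis) against the CpG observed-to-expected ratio (x axis). Grey bins count all genes with a promoter peak on a log scale, blue points are 48 Rab genes, and red crosses at the foot are the 9 Rab genes without a promoter peak. Of the crosses 5 lie right of the dashed limit of 0.6, among CpG-rich genes.

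Regions counted as distal had their summit more than 1 kb from every protein-coding start site and no further than 50 kb from the 5′ end of the Rab gene. Start sites of noncoding genes were not considered, so a distal region may lie at one. The 57 Rab genes had 292 distal regions, a mean of 5.12 per gene against 4.20 over all genes, and no region counted for more than 1 of them. At least 1 was found at 54 genes (94.7%, against 82.0% of all genes), and Rab13, Rab32 and Rab39b had none. In the replicates' own lists the means were 3.74 and 3.63, against 3.08 and 3.02. In the longer replicated list they were 9.32 against 7.23. Genes with a promoter peak differed little in the conservative list, with a mean of 5.25 at Rab genes, 5.19 at all, and medians of 5. Without a promoter peak the means were 4.44 at 9 Rab genes and 2.70 at all 8744 such genes. Of the 292 regions 172 overlapped a region of both replicates' own lists, 59 of 1 only and 61 of neither. Introns held 146 of them, 81 of these in introns of Rab genes, while 110 were intergenic and 36 lay in exons. For 147 of the 292 the nearest 5′ end was that of a Rab gene, and for the others that of a neighbour. Promoter signal and distal count ran in opposite order across the 48 open genes (Spearman -0.34, and -0.27 over 13194 genes). Both measures come from the same libraries, and genes are not independent replicates.

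Rab4a had most distal regions, 11 in the conservative list and 9 and 7 in the replicates (8 ± 1.41, SD, n = 2), more than 94.8% of all genes. Its promoter was among the weakest of the family by the 1 kb rule, under which a region 1.19 kb from its start (9.30) is 1 of the 11. The strongest of the 11 lay 7.92 kb upstream (signal 14.4 and 16.5 in the replicates), and all 4 upstream regions had signals of 13.9 to 16.5 in the conservative list, in introns of the overlapping gene Gm20388. Rab7, Rab10, Rab20 and Rab43 had 10 each, with 6 ± 1.41, 7.5 ± 0.707, 9 ± 1.41 and 7.5 ± 0.707 in the replicates. Rab1a, Rab7b, Rab8b, Rab14 and Rab31 had 9. The count for Rab14 rests most on the joint list, with 2 and 5 in the replicates. Of the 10 regions at Rab10, a Rab of surface transport, 6 lay in its own introns, and of the 9 at Rab8b 8 did. Rab31 had 7 of its 9 in its own introns although its promoter was not listed, with signals up to 12.1. Rab19, also without a promoter peak, had 8, of which 3 were nearest to its own 5′ end and the others to Slc37a3 or Mkrn1.

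**Figure D4:**
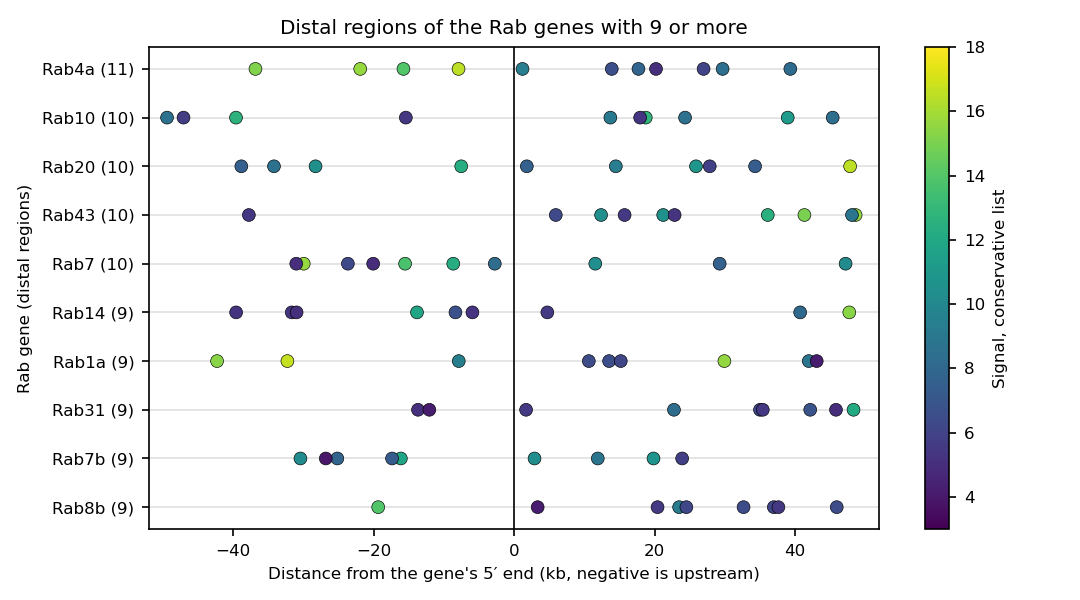
Positions of distal regions (points) from 50 kb upstream to 50 kb downstream of the 5′ end (x axis, kb) at the 10 Rab genes with 9 or more, whose counts stand in brackets (y axis). Colour is signal in the conservative list. At Rab4a the 4 upstream points are the strongest, and at Rab8b all but 1 of the points lie downstream.

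The strongest distal region of the family lay 16.5 kb downstream of the 5′ end of Rab3d, beyond its 3′ end (chr9:21901292-21901951), with 16.2 in replicate 1 and 19.3 in replicate 2 (17.8 ± 2.19, SD, n = 2). Its signal of 21.01 in the conservative list exceeded that of 99.4% of all 65539 distal regions. Regions in introns of Rab39 (16.6 and 17.7) and Rab6a (17.1 and 17.0) followed at 20.1 each, the latter nearer to the 5′ end of Mrpl48 than to that of Rab6a. A region 6.35 kb upstream of Rab26 (14.3 and 19.0) differed most between the libraries among these. A region in an intron of Rab40b (13.8 and 17.8, and 17.8 in the conservative list) was nearer to the 5′ end of Wdr45b than to that of Rab40b. Median signal was 8.43 over the 292 regions and 8.74 over all distal regions.

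Short motifs were matched on both strands within 150 bases of each strongest summit, and a match is a description, not a bound site. For Rab promoters 1 region per gene was counted, although 5 of these genes had 2. The comparison was with all 15399 promoter regions, further ones of the same gene included, so these sets are not like for like. At promoters GGGCGG was present at 36 of 48 Rab genes (75%, against 59.4% of 15399 promoter regions) and ATTGG at 22 (45.8%, against 36.5%). TCACGTGA was found at 3, Rab5a, Rab21 and Rab24 (6.25%, against 1.45%). Other open endosome and lysosome genes, among them Rab5b, Rab5c, Rab7 and Rab9, lacked it. CCGGAAG was found at 6 (12.5%, against 15.4%), TGTGGT (RUNX) at 8 (16.7%, against 15.0%), the consensus words of YY1 at 2 (4.17%, against 1.29%) and of NRF1 at 1 (2.08%, against 1.49%), and TGACGTCA at 1 (2.08%, against 2.95%). A GATA word, taken as AGATAA or TGATAA, was found only at Rab7 (2.08%, against 11.6%). The NFE2 and AP-1 word TGAGTCA was found at none (against 4.06%).

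At distal regions AGATAA or TGATAA was found in 102 of 292 (34.9%, against 32.9% of all distal regions), TGTGGT in 78 (26.7%, against 32.1%), TGAGTCA in 39 (13.4%, against 9.21%) and GGGCGG in 30 (10.3%, against 9.83%). ATTGG was found in 86 (29.5%, against 31.0%), CCGGAAG in 7 (2.40%, against 2.59%) and TCACGTGA in 2 (0.685%, against 0.339%). The remaining motifs were found in none. By gene the GATA counts varied widely around a total near that of all distal regions. GATA letters were present in 7 of the 11 regions of Rab4a, all 5 of Rab6a, 6 of 10 at Rab10 and at Rab43, and 5 of 9 at Rab1a. They were present in 1 of 10 at Rab20, 1 of 9 at Rab31, and 1 of 8 at Rab8a and at Rab19. At Rab9, Rab34, Rab39 and Rab40b, with 4 regions each, they were present in none.

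Genes that act on Rab proteins were open in most cases too. Of 95 such genes found in the annotation 88 had a promoter peak, against 60.1% of all genes, and 84 and 83 in the replicates' own lists, against 57.1% and 56.4%. Their median signal was 10.9, below the 11.3 of all open genes. The 95 genes were not split by CpG content, and 88.5% of all CpG-rich genes had a promoter peak. All 8 genes of Rab prenylation and recycling were open, led by Chm, the Rab escort protein (17.6 ± 1.66, SD, n = 2). Of 22 exchange factor genes 21 were open, all but Rin2, with Ccz1, part of the complex that activates Rab7, at 17.1 ± 0.0263 and Rab3ip, which activates Rab8, at 15.5 ± 0.349. GTPase-activating protein genes were open at 28 of 28, and at 27 in each replicate's own list, which lacked Tbc1d24 (4.13 in the conservative list). They were led by Tbc1d10a, which acts on Rab35 (20.1 ± 0.511, above every Rab gene), and Rab3gap1, which acts on Rab3 proteins (18.6 ± 0.332). Effector genes were open at 31 of 37, and at 28 and 27 in the replicates' own lists, led in the conservative list by Vps41, a subunit of the tethering complex HOPS of the lysosome (17.6 ± 1.81), and Rbsn, a Rab5 and Rab4 effector (15.1 ± 0.579). Rab11fip4, Rilpl1, Ehbp1l1, Micall1, Myo5b and Sytl5 had no promoter peak. Hps1 (12.4 ± 0.784) and Hps4 (10.9 ± 1.14), which together activate Rab32 and Rab38 and are needed for dense granules, were both open.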

How the data were processed

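Peak lists from ATAC-seq of 2 libraries were used, as deposited on mm10 per the labels. The signal of a summit is the deposited value from the authors' peak calling. For aligner, caller, versions, duplicate handling and read shifting the entry is: not given in the sources used here. Such settings affect which weak regions are listed. Summits with a common interval were merged, keeping the strongest. Start sites were 54433 positions of protein-coding transcripts in GENCODE M21 on 21 chromosomes of GRCm38, the assembly of mm10. Windows were 1 kb for promoters and 50 kb for loci. Sequences, CpG ratios and repeat masking came from RefSeq's GRCm38.p6. Tools were Python 3.11.15, pandas 2.3.3, numpy 2.4.6, pyfaidx 0.9.0.4 and matplotlib 3.10.9. Assignment and motif search were tested on simulated data.

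The members, role groups, gene lists and comparisons were chosen with earlier results of these data known, and the CpG limits after values were seen. Genes were named by rule: in each role group the highest and lowest promoter signal, all members without a promoter peak, the 8 with most distal regions (10 with ties), those at the 6 strongest distal regions, and the 4 widest replicate ratios. In the lists of Rab regulators the rule named the 2 highest in each and up to 5 without a peak, but all 6 effectors without one are named. Other genes named for contrast (paralogues, Rab18, Rab37, Rab44, Tbc1d24, Hps1 and Hps4) were chosen after their values were seen. Dennd10 was not matched in the annotation. Some items that the rule would name are not reported here. Means ± SD are over the replicates' own lists (n = 2). No test was made, since the design has 1 group. Alternatives were other peak lists, windows, start sites, overlap rules and leaving out each replicate.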

Additional observations from a re-analysis of the deposited data

How the results depend on the processing

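The count of open Rab promoters, 48 as reported, was 41 with the stronger 50% of regions, 47 to 51 with windows of 0.5 and 2 kb and with each replicate alone, and 56 in the replicated and pseudoreplicated lists. In each setting the share exceeded that of all genes. Counting any summit of a region, an alternative chosen after seeing the data, also gave 48. The IDR-thresholded list gave 48 with Rab15 in place of Rab9b. Median promoter signal was 11.4 to 12.2 when either replicate was left out. With the stronger 50% of regions it was 12.2 at Rab genes and 12.7 at all genes, the only setting in which the order turned. Open regulator genes numbered 60 with the stronger 50% and 83 to 94 otherwise, beside 88 as reported. Mean distal regions per Rab gene, 5.12 as reported, were 5.30 in the IDR-thresholded, 9.32 in the replicated and 8.965 in the pseudoreplicated list, 2.30 with the stronger 50%, 3.63 to 3.74 without either replicate, 2.21 and 10.8 with windows of 20 and 100 kb, and 2.58 when only regions nearest to the gene counted. The mean over all genes was lower in each of these (1.68 to 8.28). Means over genes with a promoter peak alone were not compared in the alternative settings. Promoter signal lay below that of the joint list by more than 1 SD at 36 of 47 Rab genes without replicate 2 and at 15 of 47 without replicate 1. That SD is of the same 2 replicate values, so these counts partly reflect how close the replicates were. Rab11b counts in both, with 11.54 and 11.55 in the replicates against 11.9 in the joint list. With a 2 kb window promoter signal was higher at 2 of 48, Rab4a (7.285 to 9.302) and Rab20 (6.746 to 7.593). Without read counts, depth sets no stated limit on a missing peak, and a gene without one was not shown to be shut. No paired analysis was possible because there is 1 group.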

Other observations

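Some Rab loci border genes of other functions. Of the 10 distal regions counted at Rab43, 6 were nearest to the 5′ end of Gp9, which encodes a subunit of the GPIb-IX-V complex of platelets, 3 to Rab43 and 1 to Cnbp. Those nearest to Gp9 included the 3 strongest at the locus (15.6, 15.0 and 12.5). The regions at Rab43 thus stand in a locus with a platelet gene, whose own promoter signal was 5.29 in the conservative list and which had no promoter peak in either replicate's own list.

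Repeat-masked bases filled at least 50% of the 301-base window at 20 of the 292 distal regions of Rab genes (6.85%, against 4.64% of all distal regions). Among the 20 strongest it was 2 (10%, against 3.33% of the strongest 5% of all distal regions). The intronic region of Rab39, with the second-highest signal, was masked over 80.4% of its window, against 16.3% at the Rab3d region, 31.2% at the Rab6a region and 0% at the Rab26 region. The placing of multi-mapping reads is not known here, and its part in the Rab39 value was not tested.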
